A study of Mus musculus with 9 samples.

Results

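Gene expression of Nkx2.1-CreER;Ai47 cells was compared with that of SOM-Cre;Ai47 cells in the mouse cortex at postnatal day 5. The comparison used 6 of the 9 libraries of the series, 3 per line. In both lines Cre switches on the fluorescent reporter Ai47, and each library was made from 150 green cells picked by hand from strips of upper-layer cortex in the medial prefrontal and anterior cingulate areas. The 3 remaining libraries, of VIP-Cre;Ai47 cells, entered the statistical fit only to share its estimate of the spread.

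Nkx2.1-CreER;Ai47 mice received tamoxifen on embryonic day 17, and the protocol in the labels calls their cells ChC-GFP, for chandelier cells. SOM-Cre;Ai47 mice have no treatment in the labels, and their cells are called SST-GFP. The inducible CreER acts in cells that use the Nkx2.1 gene near the time of tamoxifen, whereas the constitutive SOM-Cre acts in any cell that has used the somatostatin gene at some time, so the reporter records history and not the present level of either gene. Driver line and tamoxifen therefore differ together between the groups and cannot be told apart. The labels do not state whether libraries of a line are from separate animals. The p-values therefore cover just the spread among these libraries, which may be technical.

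Both lines are used to mark GABAergic interneurons, though libraries of both also held reads of astrocyte and dividing cell markers, given below. These interneurons are born in the medial ganglionic eminence (MGE), a transient germinal zone of the ventral forebrain. There the transcription factor Nkx2-1 specifies interneuron precursors, and it then switches off in most cortical interneurons. Chandelier cells are born late from this zone and settle in the upper layers, where their axons contact the initial segment of pyramidal cell axons. Somatostatin interneurons, among them the Martinotti cells, innervate dendrites. Basic helix-loop-helix, nuclear factor I and Mef2 transcription factors act in neuronal differentiation, and signalling from neuregulins to the receptor tyrosine kinase Erbb4 acts in interneuron migration and synapse formation.

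Each Nkx2.1 library held 10850303 to 12465997 reads assigned to genes, and each SOM library 6484488 to 9184008. After thinning to 6484488 reads, 10252, 7855 and 9171 genes had a read in Nkx2.1 replicates 1 to 3 and 10755, 11081 and 11370 in SOM replicates 1 to 3. All Nkx2.1 libraries lay below all SOM libraries, with an exact two-sided permutation p of 0.1, the smallest that 3 against 3 libraries allow. Genes with at least 50 CPM (reads of a gene relative to all reads in genes) in both other libraries of a group but with 0 reads in the library in question came to 32, 208 and 89 across Nkx2.1 replicates 1 to 3 and to 12, 2 and 3 across SOM replicates 1 to 3. The correlation of log2(CPM + 1) across genes, which are not independent replicates, was 0.485 to 0.506 within Nkx2.1, 0.668 to 0.715 within SOM and 0.469 to 0.566 between the groups. The part of these missing transcripts in the differences below was not tested.

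CPM were scaled by TMM normalization, and values of 3 libraries are given in the order of their replicate numbers. Of 10728 genes tested, 7 were called higher in Nkx2.1 (0.0652%) and 3 lower (0.028%), 0.0932% in all, by edgeR's quasi-likelihood test with Benjamini-Hochberg adjustment at 0.05. Higher were Id2, Nfib, Erbb4, Mef2c, Malat1, Tcf4 and Nrep, and lower were Rn45s, Gap43 and Fxyd6. The libraries of the groups did not overlap in 19.9% of genes, with all Nkx2.1 libraries higher in 633 genes (5.9%) and lower in 1505 (14%), and the median fitted log2 fold over all genes tested was -0.00755. With no adjustment, 313 genes (2.92%) were higher and 899 (8.38%) lower at a p under 0.05. DESeq2 called 199 higher (1.88%) and 743 lower (7.01%) of 10606 genes by its adjusted p. Below, called and not called refer to edgeR alone, and genes listed as not called have no error control by edgeR over the whole table. DESeq2 calls are given as counts for most lists and by gene for a few. A DESeq2 call can rest on a single library, as that of Sp8 below did. Many genes given as not called were called by DESeq2. Among these were Nfia (DESeq2 adjusted p = 2.06e-11), Hapln1 (1.66e-07), Tgfb2 (5.89e-08), Dab1 (5.724e-06), Pik3r2 (2.155e-05), Sst (0.00401), Npy (0.0243) and Igsf11 (0.0476). List counts below are to be read beside the shares over all genes given here. Each library was picked as a pool of cells, so fewer cells with a transcript and less of it per cell cannot be told apart.

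Counts of calls depended on single libraries. Without Nkx2.1 replicates 1, 2 and 3 there were 8, 3 and 6 genes higher and 29, 1 and 5 lower. Without SOM replicates 1, 2 and 3 there were 3, 0 and 4 higher and 0, 0 and 1 lower, and without VIP replicate 1 there were 5 and 1. All 10 calls were lost without SOM replicate 2, where their lowest adjusted p was 0.103. The sign of all 10 folds was the same in all 9 fits that left out 1 library.

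**Figure D1:**
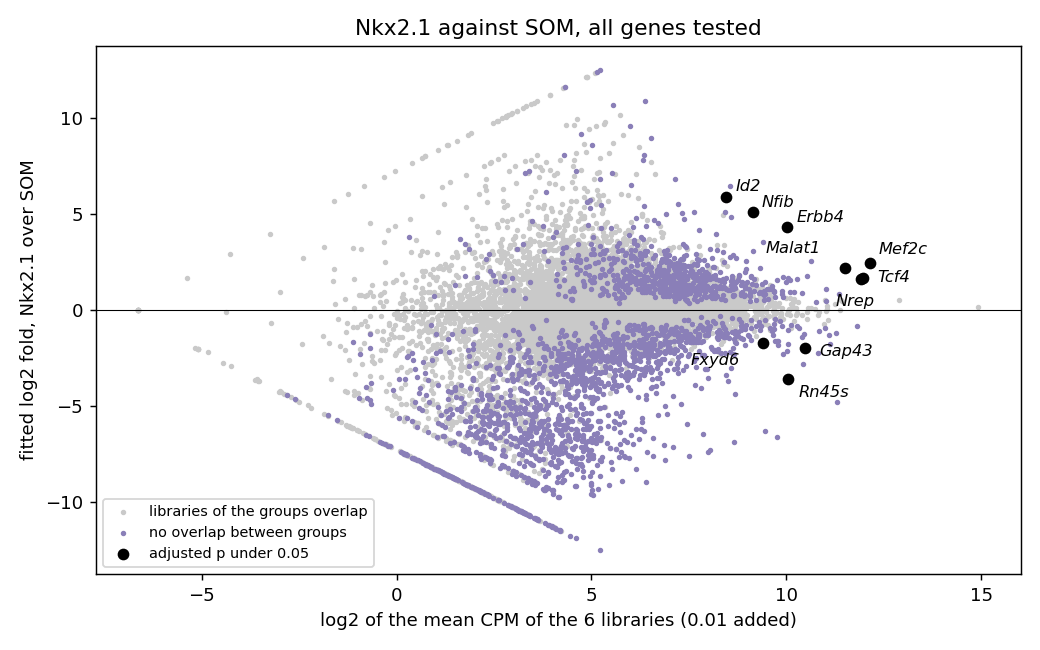
Fitted log2 fold of Nkx2.1 over SOM (vertical axis) against the log2 mean CPM of the 6 libraries (horizontal axis, 0.01 added) for the 10728 genes tested. Black points are the 10 called genes, purple points are genes whose libraries do not overlap between the groups and grey points are the rest; the straight edges are genes without reads in a group.

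Tcf4, Id2, Nfib and Mef2c, among the 7 higher genes, encode transcription factors or an inhibitor of them. Tcf4 (chromosome 18, 69343356 to 69689079, plus strand, GRCm38), an E protein that pairs with other basic helix-loop-helix factors, stood at 5548, 6417 and 6316 CPM across Nkx2.1 libraries and at 1954, 1775 and 2076 CPM in SOM libraries. Its levels were tight within both groups and did not overlap, and it rose 3.15-fold (mean 6094 ± 475 against 1935 ± 152 CPM, SD, n = 3, log2 1.65 ± 0.16 SE, edgeR adjusted p = 0.0133). The call was kept in 8 of 9 fits that left out 1 library and lost without SOM replicate 2 (edgeR adjusted p = 0.103). Id2 (chromosome 12, 25093799 to 25097140, minus strand), an inhibitor that binds E proteins and keeps them off DNA, stood at 903, 669.5 and 512 CPM across Nkx2.1 libraries and at 4.67, 8.29 and 22.0 CPM in SOM libraries. It rose 59.7-fold (mean 695 ± 197 against 11.6 ± 9.11 CPM, SD, n = 3, log2 5.90 ± 0.76 SE, edgeR adjusted p = 0.024), so that an E protein and an inhibitor of E proteins were both higher in the same libraries. Id2 lost its call without Nkx2.1 replicate 2 and VIP replicate 1 (edgeR adjusted p = 0.0723 and 0.0547) and without SOM replicates 1 and 2 (0.102 and 0.222).

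The other Id genes were less even between libraries. Id3 stood at 83.4, 99.4 and 8.36 CPM in Nkx2.1 and 9.34, 5.62 and 0.686 CPM in SOM libraries, Id4 at 34.2, 0.931 and 27.8 and 0.531, 0 and 9.83 CPM, and Id1 at 0, 21.7 and 0 and 0.531, 5.03 and 4.92 CPM. All 3 overlapped between the groups and none was called. The list of Id inhibitors and basic helix-loop-helix factors had 14 tested members, 2 of them called higher and 0 lower. Their median log2 fold was 1.35. Without overlap 3 lay higher and 1 lower, where all genes tested had 5.9% higher and 14% lower. The remaining pair without overlap was Npas2, a circadian factor, at 57.0, 100.2 and 18.2 and 15.8, 0 and 0 CPM, and the Notch target Hey1 at 0.341, 0 and 0 and 23.5, 6.96 and 2.97 CPM. Tcf3, the other E protein with a value, stood at 1.14, 2.12 and 20.4 CPM in Nkx2.1 and 3.61, 1.92 and 12 CPM in SOM libraries.

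E proteins and their partners bind the E-box CANNTG, and Id proteins keep them from it. The RefSeq promoter table on GRCm38.p6 held a start site for 5 of the 10 called genes. The 250 bases before the start are printed for Id2 and Erbb4, which were higher in Nkx2.1 libraries, for Fxyd6, which was lower, and for Sst, the gene that defines the other line. Capitals mark each match to CANNTG and, in Sst, to the cyclic AMP response element TGACGTCA, both searched on both strands. The windows lie at chr12:25096093-25096342 (minus strand) for Id2, chr1:69108060-69108309 (minus) for Erbb4, chr9:45369935-45370184 (plus) for Fxyd6 and chr16:23890845-23891094 (minus) for Sst. The RefSeq starts of Id2 and Sst lie inside the spans that GENCODE gives these genes. The Id2 window thus lies wholly within its gene span (25093799 to 25097140) and the Sst window partly within its own (23889573 to 23890958).
Id2: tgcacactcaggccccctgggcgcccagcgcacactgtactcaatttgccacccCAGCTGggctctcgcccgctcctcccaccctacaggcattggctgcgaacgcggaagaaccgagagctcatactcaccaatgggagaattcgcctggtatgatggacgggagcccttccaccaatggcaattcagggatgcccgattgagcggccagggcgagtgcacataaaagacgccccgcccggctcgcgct
Erbb4: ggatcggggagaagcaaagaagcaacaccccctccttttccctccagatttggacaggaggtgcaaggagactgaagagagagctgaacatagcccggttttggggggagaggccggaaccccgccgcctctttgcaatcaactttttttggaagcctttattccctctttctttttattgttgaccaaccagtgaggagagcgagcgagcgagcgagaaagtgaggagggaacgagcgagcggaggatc
Fxyd6: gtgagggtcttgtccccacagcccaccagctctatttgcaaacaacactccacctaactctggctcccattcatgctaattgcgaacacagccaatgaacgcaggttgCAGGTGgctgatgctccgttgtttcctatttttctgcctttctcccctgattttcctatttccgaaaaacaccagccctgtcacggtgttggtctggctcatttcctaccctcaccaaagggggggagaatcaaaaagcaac
Sst: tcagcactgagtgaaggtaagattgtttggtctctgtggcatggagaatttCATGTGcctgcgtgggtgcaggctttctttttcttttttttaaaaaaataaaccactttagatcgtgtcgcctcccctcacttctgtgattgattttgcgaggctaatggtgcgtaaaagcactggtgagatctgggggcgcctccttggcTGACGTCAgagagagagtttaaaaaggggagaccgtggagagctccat
Id2, Fxyd6 and Sst hold 1 E-box each and Erbb4 holds 0 in this window, where 66.2% of 32851 windows of the same length hold at least 1. Of the other called genes with a start site, Malat1 holds 0, and Mef2c holds 2, 0 and 1 before its 3 starts. The response element of Sst starts 48 bases before the start site, and 1.55% of the windows hold such an element. A match describes the letters in the window and no more.

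Of the 4 nuclear factor I genes, which encode factors of late neuronal and glial differentiation, 3 lay higher in Nkx2.1 libraries without overlap and 1 lower. Nfib (chromosome 4, 82290173 to 82705750, minus strand) stood at 1449.7, 841 and 1013 CPM across Nkx2.1 libraries and at 53.1, 25.6 and 18.0 CPM in SOM libraries. No library of either group came near the other, and Nfib rose 34.2-fold (mean 1101 ± 314 against 32.2 ± 18.5 CPM, SD, n = 3, log2 5.09 ± 0.59 SE, edgeR adjusted p = 0.0144). The call was lost without SOM replicates 2 and 3 (edgeR adjusted p = 0.125 and 0.0597). Nfia stood at 79.2, 131 and 269 CPM against 5.41, 2.81 and 2.74 CPM and was not called (log2 5.44 ± 0.85 SE, edgeR adjusted p = 0.0657). Nfix stood at 338, 341 and 263 CPM against 26.2, 1.33 and 0.686 CPM, also without overlap and not called (edgeR adjusted p = 0.287). Nfia was called without Nkx2.1 replicate 1 (edgeR adjusted p = 0.021) and Nfix without SOM replicate 1 (0.025). Nfic, the last member of the family, lay the other way, at 2.27, 8.63 and 0 CPM in Nkx2.1 and 28.4, 36.6 and 24.7 CPM in SOM libraries (edgeR adjusted p = 0.66).

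The MADS-box factor gene Mef2c (chromosome 13, 83504034 to 83667080, plus strand), whose product responds to calcium signalling, stood at 6253, 10642 and 6181 CPM across Nkx2.1 libraries and at 1254, 1235 and 1657 CPM in SOM libraries. Nkx2.1 replicate 2 was the highest, the groups were far apart, and Mef2c rose 5.56-fold (mean 7692 ± 2555 against 1382 ± 238 CPM, SD, n = 3, log2 2.48 ± 0.27 SE, edgeR adjusted p = 0.0144). That call was lost without SOM replicates 1 and 2 (edgeR adjusted p = 0.0716 and 0.103). Mef2d stood at 265, 147 and 36.9 CPM against 3.18, 0.148 and 30.8 CPM without overlap, and Mef2a at 134, 74.8 and 387 against 76.9, 63.5 and 98.0 CPM with overlap. Hdac9, a class IIa histone deacetylase that binds Mef2 proteins and represses their targets, stood at 349, 211 and 169 CPM in Nkx2.1 and at 56.6, 57.0 and 52.8 CPM in SOM libraries (log2 2.13, edgeR adjusted p = 0.367). Over the 11 tested genes of nuclear factor I, Mef2 and its corepressors, 2 were called higher and 0 lower, and the median log2 fold was 2.13. Of these 11, 6 lay higher and 1 lower without overlap, beside 5.9% and 14% of all genes tested.

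Nuclear factor I and Id genes are also used by astrocytes and their precursors. Astrocyte and radial glia markers summed to 4272, 701 and 313 CPM across Nkx2.1 libraries and to 149, 315 and 83 CPM in SOM libraries, with reads for 14 of 14 markers. Of 10 tested markers 0 were called and 0 lay without overlap, DESeq2 called 2 higher, and the median log2 fold was 2.34 (0.25 to 3.01 without 1 library). Slc1a3, a glutamate transporter gene of astrocytes, stood at 1649, 293 and 4.89 CPM against 13.1, 37.7 and 11.7 CPM, and Fabp7, of radial glia, at 1239.6, 326 and 83.9 against 35.3, 96.1 and 26.5 CPM. In Nkx2.1 replicate 3, Aqp4, Aldoc, Gfap, Gja1, Sox9 and Vim had 0 reads, and the other 8 markers gave the whole sum. The part of astrocyte transcripts in the folds of nuclear factor I and Id genes was not tested.

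**Figure D2:**
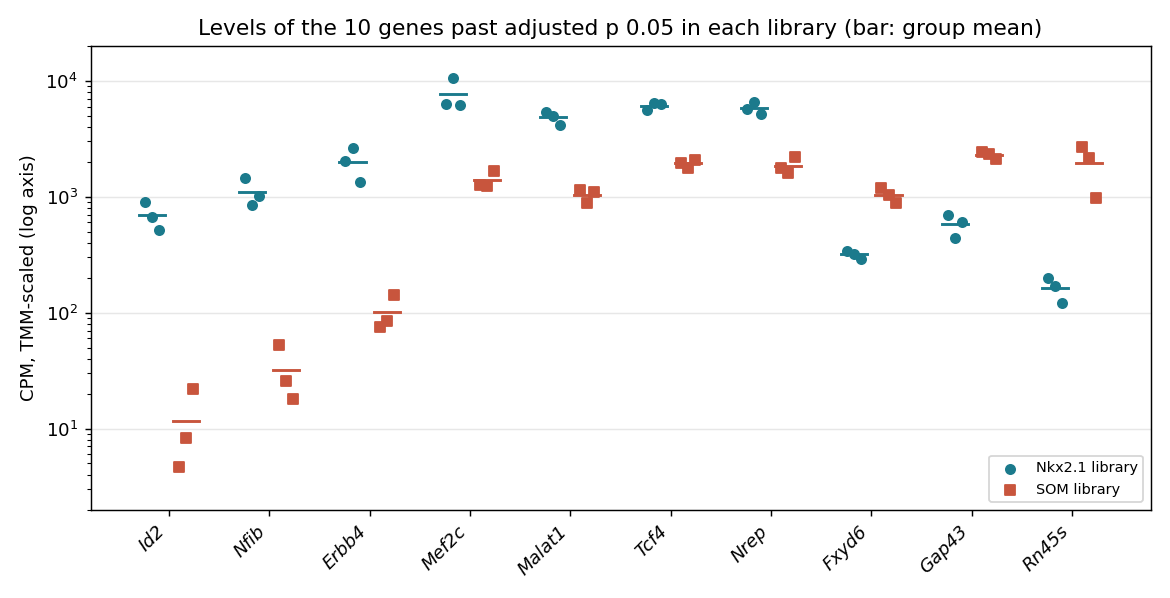
CPM (log axis) of the 10 called genes in each of the 3 Nkx2.1 (circles) and 3 SOM libraries (squares), with the group mean as a bar. From Id2 to Nrep all Nkx2.1 libraries lie above all SOM libraries, and from Fxyd6 to Rn45s all lie below.

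The neuregulin receptor gene Erbb4 (chromosome 1, 68032186 to 69108059, minus strand) stood at 2024, 2607 and 1345 CPM across Nkx2.1 libraries and at 74.8, 85.3 and 141 CPM in SOM libraries. The groups did not overlap, and it rose 19.9-fold (mean 1992 ± 632 against 100.3 ± 35.4 CPM, SD, n = 3, log2 4.31 ± 0.62 SE, edgeR adjusted p = 0.0458). This call was kept in 3 of 9 fits that left out 1 library, and was lost without each SOM replicate (edgeR adjusted p = 0.214, 0.25 and 0.13), Nkx2.1 replicates 2 and 3 (0.124 and 0.0509) and VIP replicate 1 (0.0644). Of the other receptors, Egfr stood at 105, 0 and 75.4 CPM in Nkx2.1 and 0, 0 and 3.66 CPM in SOM libraries with overlap, Erbb2 reached at most 0.572 CPM in SOM replicate 3 and Erbb3 had 0 reads. Among ligands, Nrg3 stood at 646, 48.9 and 364 CPM against 154, 209.6 and 256 CPM, Nrg1 had reads in SOM replicate 1 alone (56.7 CPM), and Hbegf stood at 46.9, 67.2 and 10.8 against 28.0, 26.5 and 20.9 CPM. No ligand was called or free of overlap.

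Downstream of the receptor edgeR called no gene, and DESeq2 called Shc3 lower. The adaptor Grb2 stood at 67.1, 9.05 and 14.9 CPM in Nkx2.1 and 86.1, 80.5 and 150.5 CPM in SOM libraries, and the adaptor Shc3 at 0.114, 0 and 0 and 12.1, 12.1 and 33.6 CPM, both without overlap and not called (edgeR adjusted p = 0.622 and 0.309). Of 30 tested members of the neuregulin and ErbB list, 1 was called higher and 0 lower, and the median log2 fold was -0.13. Without overlap 1 lay higher and 2 lower, shares below the 5.9% and 14% of all genes tested. Pik3r2, a regulatory subunit of phosphoinositide 3-kinase outside that list, stood at 16.6, 38.3 and 42.0 CPM against 287, 308 and 196 CPM, was 8.16-fold lower and not called (edgeR adjusted p = 0.0758).

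Chandelier cell markers were then compared. Hapln1, a link protein of perineuronal matrix, stood at 459.7, 634 and 564 CPM across Nkx2.1 libraries and at 25.0, 48.0 and 34.0 CPM in SOM libraries. It was 15.5-fold higher without overlap, and not called (log2 3.95 ± 0.65 SE, edgeR adjusted p = 0.0758). Fgf13, which binds voltage-gated sodium channels, stood at 778, 669 and 617 CPM against 198, 156 and 235 CPM, without overlap between the groups and not called (edgeR adjusted p = 0.287). Of 9 tested members of 12 listed, 1 was called higher (Erbb4) and 0 lower, where all genes tested had 0.0652% and 0.028%. Without overlap 4 lay higher and 0 lower, beside 5.9% and 14% of all genes tested. DESeq2 called 5 of 9 higher, Igsf11 among them, and 0 lower, beside 1.88% and 7.01% of the genes it tested. The median log2 fold was 3.95, between 1.54 and 4.21 in fits without 1 library. Without the genes listed because of the study, the median over 8 tested members was 2.88 (1.46 to 3.65).

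The other chandelier markers were uneven. Pthlh and Unc5b were high in Nkx2.1 replicate 1 alone, at 49.4, 0 and 0 and at 219, 0.169 and 0.580 CPM in the 3 Nkx2.1 libraries, whereas Rasgrp1 had 0, 76.7 and 66.1 CPM and Vipr2 0, 23.3 and 0.166 CPM. Gldn, the gliomedin gene of the series title, had 178, 0 and 0 CPM across Nkx2.1 libraries and 0, 0 and 0.114 CPM in SOM libraries, and was not tested. Igsf11, a synaptic adhesion gene that the study took up, stood at 53.7, 0.254 and 85.2 CPM against 0, 0.592 and 0 CPM, with overlap through Nkx2.1 replicate 2 (log2 7.83 ± 3.45 SE, edgeR adjusted p = 0.436). Gldn and Igsf11 are on the list because of the study and give no independent evidence of its direction. Of 12 fast-spiking genes 9 had reads, summing to 845.5, 1243 and 730.0 CPM in Nkx2.1 and 1271, 651.1 and 625.5 CPM in SOM libraries, while Pvalb, Syt2 and Nefh had 0 reads. Of 6 tested members 0 were called (0 higher and 1 lower by DESeq2), and 1, the matrix gene Bcan, lay higher without overlap (181, 12.9 and 30.1 against 0.212, 4.88 and 0 CPM).

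**Figure D3:**
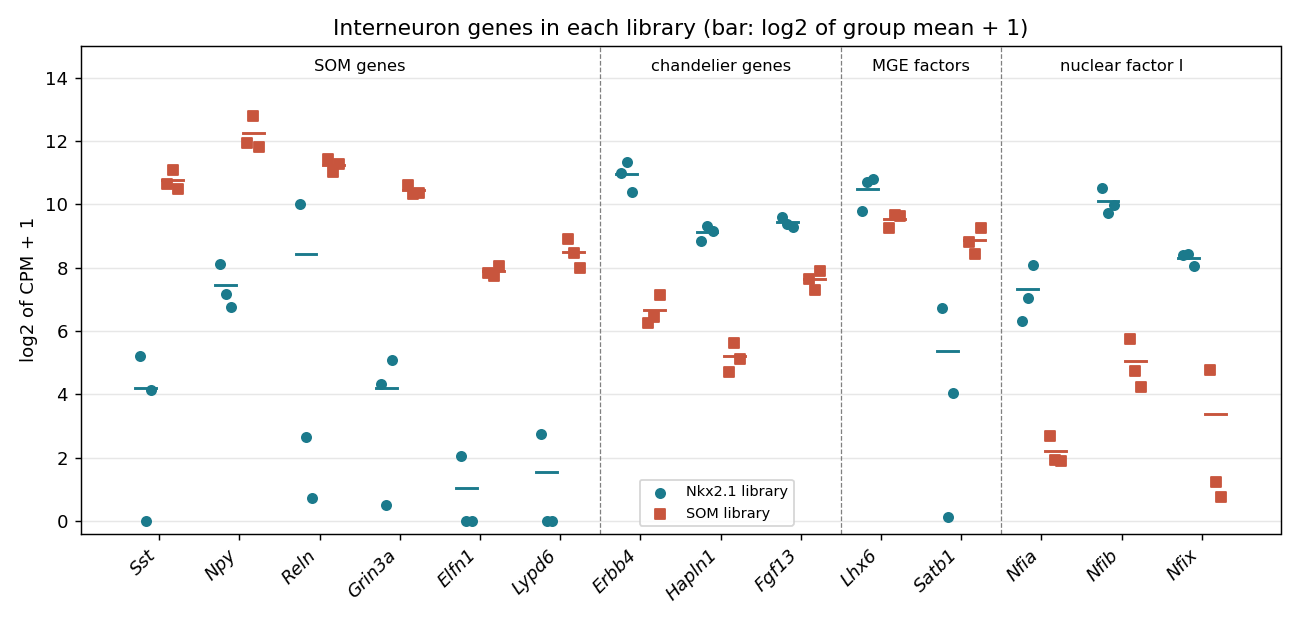
Log2(CPM + 1) of interneuron genes in each Nkx2.1 (circles) and SOM library (squares), with bars at the log2 of the group mean + 1. The 6 SOM genes plotted lie lower in the Nkx2.1 libraries, with Reln at 1024 CPM in replicate 1 the nearest. The 3 chandelier and 3 nuclear factor I genes plotted lie higher. The genes plotted are a selection. Left out are Nfic, which lay lower without overlap, and the chandelier and SOM genes that overlapped between the groups.

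Sst, the somatostatin gene, stood at 36.1, 0 and 16.6 CPM across Nkx2.1 libraries and at 1594, 2163 and 1445 CPM in SOM libraries, 98.8-fold lower by the means. The groups did not overlap, but the spread within Nkx2.1 was wide and Sst was not called (log2 -6.63 ± 1.59 SE, edgeR adjusted p = 0.287). Without Nkx2.1 replicate 2, which had 0 reads, it was called (edgeR adjusted p = 0.0491). The co-transmitter gene Npy stood at 274, 144 and 108 CPM against 3939.8, 7146 and 3555 CPM and the NMDA receptor subunit gene Grin3a at 19.2, 0.423 and 33.0 against 1565, 1279 and 1312 CPM, neither called. Elfn1, a postsynaptic protein that tunes transmitter release at inputs to somatostatin cells, stood at 3.18, 0 and 0 CPM against 226, 214 and 265 CPM, and Lypd6, which modulates nicotinic receptors, at 5.68, 0 and 0 against 481, 352 and 255 CPM. Nkx2.1 replicate 1 held all reads of its group for both genes, and without it Elfn1 was called (edgeR adjusted p = 0.0182). Npy was called without VIP replicate 2 (edgeR adjusted p = 0.0199) and with only the 6 Nkx2.1 and SOM libraries (0.0327).

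Other members of the list lay lower in the same libraries. Reln, a secreted matrix glycoprotein, stood at 1024, 5.33 and 0.663 CPM across Nkx2.1 libraries and at 2787, 2073 and 2448 CPM in SOM libraries (log2 -2.83 ± 2.02 SE, edgeR adjusted p = 0.732). Nos1, the nitric oxide synthase gene of long-range somatostatin cells, stood at 15.8, 0 and 0 CPM against 224, 751 and 399 CPM, and Chodl, a marker of the same cells, at 10.1, 0 and 0 against 531, 653 and 399 CPM. Calb1, the calbindin gene, overlapped at 176, 248.8 and 712 CPM in Nkx2.1 and 344, 256 and 143 CPM in SOM libraries, as did the transcription factor gene Etv1 at 14.4, 30.5 and 2.24 and 0.849, 23.1 and 7.20 CPM. Of 13 tested members of 17 listed, 0 were called, 0 lay higher and 11 lower without overlap, where 14% of all genes tested lay lower, and the median log2 fold was -6.63 (-10.88 to -6.04 without 1 library). DESeq2 called 7 of them lower, beside 7.01% of the genes it tested. The list includes Sst, the gene of the SOM-Cre driver, which gives no independent evidence of its direction, and the list median equals the fold of Sst. Elfn1 and Lypd6, with all their Nkx2.1 reads in replicate 1, could pass the filter on low counts only with libraries of the other lines.

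Transcription factors of the shared MGE origin were present in both groups. Lhx6, which acts after Nkx2-1 in MGE interneurons, stood at 881, 1679.7 and 1770.2 CPM across Nkx2.1 libraries and at 604, 816 and 799 CPM in SOM libraries, without overlap and not called (log2 0.97 ± 0.60 SE, edgeR adjusted p = 0.642). Nkx2-1 itself was not tested, with 12, 10 and 1 reads across Nkx2.1 and 0, 0 and 1 across SOM libraries. Satb1, a chromatin organizer that acts in somatostatin cells, stood at 106, 0.0846 and 15.6 CPM against 452, 348 and 615 CPM, without overlap (edgeR adjusted p = 0.504). The MGE factors Sox6 and Maf overlapped between the groups, with Sox6 at 112, 382 and 495 CPM in Nkx2.1 and 356, 884 and 730.2 CPM in SOM libraries.

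Factors common to most interneurons gave a mixed picture. Dlx1 stood at 1066, 1252 and 931 CPM in Nkx2.1 and 457, 559 and 645 CPM in SOM libraries, Dlx2 at 56.7, 81.1 and 63.4 and 37.5, 37.3 and 15.4 CPM, and Zeb2, a zinc-finger factor that directs interneurons to the cortex, at 3066, 3204 and 1872 and 317, 271 and 809 CPM. All 3 lay higher without overlap, with Zeb2 the nearest to a call (log2 2.54 ± 0.48 SE, edgeR adjusted p = 0.136). Dlx6 lay lower, at 0.114, 0 and 0.745 against 4.35, 5.33 and 6.29 CPM. Of the 8 tested factors common to most interneurons, 0 were called (1 higher and 1 lower by DESeq2) and the median log2 fold was 0.51. Without overlap 3 lay higher and 2 lower, beside 5.9% and 14% of all genes tested. The 5 tested MGE factors had 1 higher and 1 lower without overlap and a median of -0.96. Over the 13 tested members of both lists together, 4 lay higher and 3 lower, and the median was -0.25.

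Of the GABA synthesis and transport genes edgeR called none, and DESeq2 called Slc32a1 lower. Gad1 and Gad2, the genes of glutamate decarboxylase, stood at 965, 1877 and 918 CPM against 1002, 1217 and 1322 CPM and at 309.6, 465 and 271 against 757, 414 and 543 CPM. Gad1 overlapped with a log2 fold of 0.09, and that of Gad2 was -0.71 (edgeR adjusted p = 0.989 and 0.665). The fold of Gad1 turned to -0.32 without Nkx2.1 replicate 2 and to -0.016 without SOM replicate 1. The vesicular GABA transporter gene Slc32a1 stood at 0.908, 4.32 and 8.36 CPM in Nkx2.1 and 74.6, 44.7 and 15.2 CPM in SOM libraries, without overlap. Of 8 tested members 0 were called and 2, Slc32a1 and the chloride transporter gene Slc12a5 (1.36, 54.6 and 2.07 against 106, 70.7 and 79.5 CPM), lay lower without overlap, beside 14% of all genes tested.

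Genes of interneurons from the caudal ganglionic eminence (CGE), another germinal zone, were compared as well. Prox1 and Sp8 had 0 reads in the Nkx2.1 libraries, and in SOM libraries they stood at 0, 0 and 0.686 and 19.3, 0 and 0 CPM. Vip reached 3.52 CPM in Nkx2.1 replicate 1 and 1.26 CPM in SOM replicate 3 and had 0 reads in the other 4 libraries. Nr2f2, a CGE factor also used by some somatostatin cells, stood at 1.02, 0 and 0 CPM in Nkx2.1 and 217, 97.1 and 192 CPM in SOM libraries, and the synaptic vesicle gene Synpr at 20.7, 0 and 0 and 358, 1096 and 958 CPM. Of 14 tested members 0 were called (0 higher and 5 lower by DESeq2), and 0 lay higher and 4 lower without overlap. All genes tested had 5.9% higher and 14% lower. Among the 5 DESeq2 calls was Sp8 (DESeq2 log2 -21.05, DESeq2 adjusted p = 5.77e-10), which within these groups had reads in SOM replicate 1 alone. The median log2 fold of the list was -3.68 and ranged from -5.6 to -0.66 without 1 library. The others without overlap were Npas1 (0.908, 0 and 2.15 against 119.8, 47.7 and 54.3 CPM) and the enkephalin gene Penk (1.82, 0 and 0 against 55.3, 73.0 and 36.1 CPM). Without Nkx2.1 replicate 1, Nr2f2, Synpr and Penk were called (edgeR adjusted p = 0.019, 0.00245 and 0.0213).

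Growth cone and cytoskeleton genes moved in both directions among the calls. Gap43 (chromosome 16, 42248442 to 42340651, minus strand), a membrane protein of growing axon tips, stood at 694, 437 and 602 CPM across Nkx2.1 libraries and at 2446, 2336 and 2098 CPM in SOM libraries. It fell 3.97-fold (mean 578 ± 130.1 against 2293 ± 178 CPM, SD, n = 3, log2 -1.99 ± 0.27 SE, edgeR adjusted p = 0.036), with no overlap. Nrep (chromosome 18, 33437019 to 33464029, minus strand), which encodes a small protein of regenerating neurons, stood at 5699, 6573 and 5192 CPM against 1767, 1607 and 2199 CPM and rose 3.13-fold (mean 5821 ± 699 against 1858 ± 306 CPM, SD, n = 3, log2 1.65 ± 0.20 SE, edgeR adjusted p = 0.0154). Gap43 lost its call in 7 of 9 fits without 1 library, with edgeR adjusted p = 0.12 and 0.0535 without Nkx2.1 replicates 2 and 3, 0.214, 0.222 and 0.13 without SOM replicates 1 to 3 and 0.0557 and 0.0752 without VIP replicates 1 and 2. Nrep lost it without Nkx2.1 replicate 2 (edgeR adjusted p = 0.0812) and SOM replicates 1 and 2 (0.102 and 0.125).

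Other members of this list lay mostly below zero. The stathmin gene Stmn3, whose product destabilizes microtubules, stood at 390.2, 504 and 327 CPM against 1402, 1324 and 1058 CPM, and Stmn2 at 1828, 1608 and 1109 against 3869, 3268 and 3225 CPM. Map1b and Mapt, microtubule-associated proteins of axons, stood at 2265, 2809 and 2792 against 4594, 4859 and 4503 CPM and at 872, 1496 and 1182 against 2600.4, 2419 and 2448 CPM. The neuronal tubulin gene Tubb3 stood at 823, 915 and 511 CPM against 1716, 2027 and 2191 CPM, and Rtn1 at 855, 633 and 998 against 2475, 2002 and 1473 CPM. None of these 6 was called (edgeR adjusted p = 0.0828, 0.196, 0.103, 0.221, 0.204 and 0.194), and in each all Nkx2.1 libraries lay below all SOM libraries. Map2, a microtubule-associated protein of dendrites, lay the other way at 3443, 2276 and 2753 CPM against 998, 1579 and 1439.9 CPM (log2 1.08 ± 0.30 SE, edgeR adjusted p = 0.309).

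Of 33 tested members, all those listed, 1 was called higher and 1 lower, and DESeq2 called 1 higher and 2 lower. Without overlap 2 lay higher and 16 lower, beside 5.9% and 14% of all genes tested. The median log2 fold was -0.83 (-1.03 to -0.79 without 1 library). Tmsb4x and Tuba1a overlapped, at 2311, 2656 and 1819 against 1803, 2144 and 1939 CPM and at 1115, 827 and 588 against 852, 1105 and 1089 CPM. Actg1 (1.02, 2.28 and 0.745 against 3.50, 4.29 and 9.38 CPM) and Tmsb10 (4.88, 4.06 and 7.45 against 12.3, 11.2 and 12 CPM) have near-identical copies elsewhere in the genome, so their counts, from unique alignments only, are uncertain. Enc1, an actin-binding protein of neurons outside the list, stood at 13.1, 99.3 and 71.1 CPM against 752, 557 and 629.7 CPM and was not called (edgeR adjusted p = 0.166), except without Nkx2.1 replicate 1 (0.0468).

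**Figure D4:**
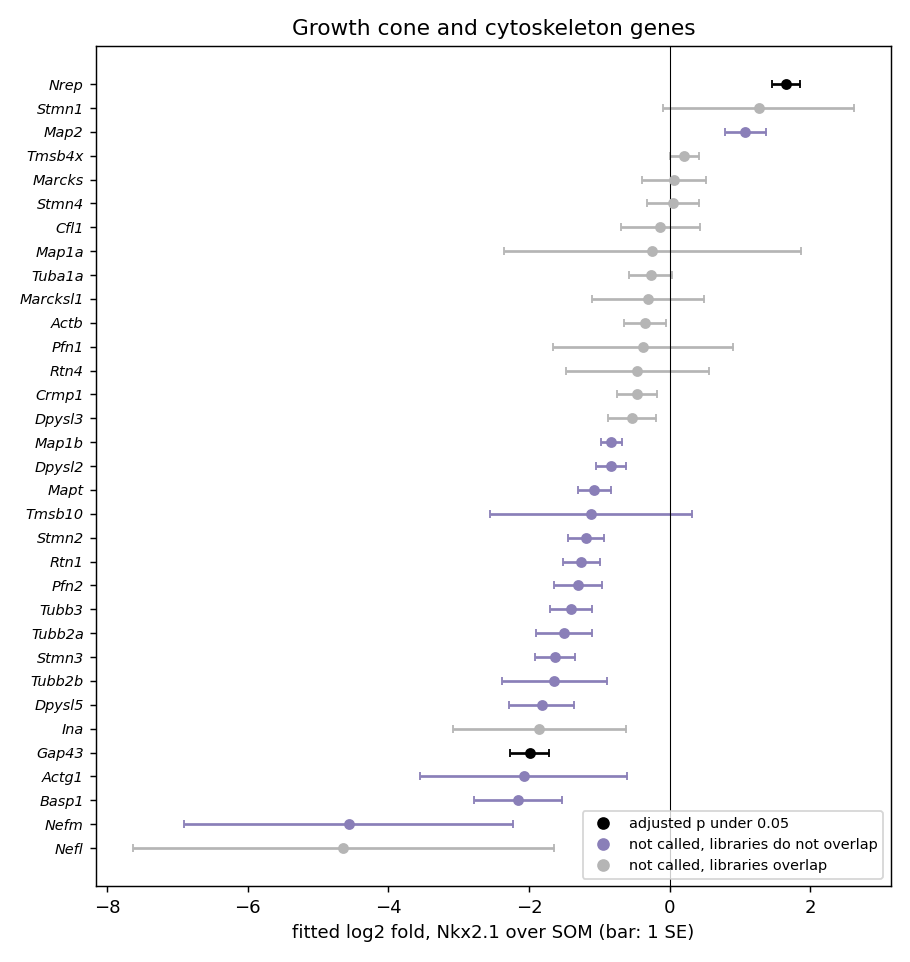
Fitted log2 fold of Nkx2.1 over SOM with its SE (horizontal axis) for the 33 growth cone and cytoskeleton genes, in order. Black marks the called genes Nrep and Gap43, purple the genes not called whose libraries do not overlap and grey the rest. Of the 33, 16 lie lower without overlap, Gap43 included, beside 14% of all genes tested.

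Fxyd6 (chromosome 9, 45370185 to 45396159, plus strand), a small membrane protein that modulates the sodium pump, stood at 340.4, 322 and 290.2 CPM across Nkx2.1 libraries and at 1201, 1027 and 879.7 CPM in SOM libraries. It fell 3.26-fold with no overlap (mean 317 ± 25.4 against 1036 ± 161 CPM, SD, n = 3, log2 -1.71 ± 0.25 SE, edgeR adjusted p = 0.0473), and its libraries were close together within each group. Its call was the least stable: it was kept only without Nkx2.1 replicate 1, and edgeR adjusted p was 0.14 and 0.0791 without Nkx2.1 replicates 2 and 3, 0.214, 0.237 and 0.13 without SOM replicates 1 to 3 and 0.0884, 0.127 and 0.125 without VIP replicates 1 to 3. Atp1b1, a subunit of the pump itself, stood at 246, 493 and 277 CPM against 796, 643 and 449 CPM. Of 8 tested genes of the pump and its regulators, 0 were called higher and 1 lower, and the median log2 fold was -0.94. Without overlap 0 lay higher and 3 lower, beside 5.9% and 14% of all genes tested. Among the 3 was Fxyd7, at 0.908, 0 and 0 CPM in Nkx2.1 and 98.0, 52.99 and 44.1 CPM in SOM libraries.

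Nuclear RNAs gave a call in each direction. Malat1 (chromosome 19, 5795690 to 5802672, minus strand), a long noncoding RNA of nuclear speckles, stood at 5400.5, 4979.7 and 4132 CPM across Nkx2.1 libraries and at 1137, 877 and 1101 CPM in SOM libraries, and rose 4.66-fold (mean 4837 ± 646 against 1038 ± 141 CPM, SD, n = 3, log2 2.22 ± 0.32 SE, edgeR adjusted p = 0.0473). Rn45s, the precursor of ribosomal RNA, stood at 201, 169 and 121 CPM against 2686, 2171 and 982 CPM and fell 11.9-fold (mean 164 ± 39.97 against 1946 ± 874 CPM, SD, n = 3, log2 -3.57 ± 0.40 SE, edgeR adjusted p = 0.0144). Its locus is repeated in the genome, so that its count from unique alignments is uncertain. Malat1 lost its call in 7 of 9 fits, with edgeR adjusted p = 0.0586, 0.14 and 0.0535 without Nkx2.1 replicates 1 to 3, 0.214, 0.25 and 0.201 without SOM replicates 1 to 3 and 0.091 without VIP replicate 3. Rn45s lost it without Nkx2.1 replicate 2 (edgeR adjusted p = 0.0723) and SOM replicates 1 and 2 (0.052 and 0.103). The imprinted noncoding RNA Meg3 overlapped, at 1605, 2837 and 980.1 against 2432, 1914 and 3261 CPM, and the host gene Snhg11 lay lower without overlap, at 522, 596 and 329.8 against 1978, 1393 and 1503 CPM (edgeR adjusted p = 0.121).

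Genes of the axon initial segment, the compartment that chandelier cells contact on their targets, were read here in the interneurons. Scn1a, a sodium channel of interneuron axons, stood at 786, 728 and 575 CPM in Nkx2.1 and 188, 72.4 and 24.1 CPM in SOM libraries, and Scn8a at 277, 103 and 252 and 79.8, 17.2 and 91.6 CPM. Ank3, the scaffold ankyrin G of the segment, stood at 1083, 1121 and 1598 CPM against 514, 523 and 865 CPM, and L1cam, an adhesion molecule that binds ankyrin, at 328, 282 and 293 against 955, 643 and 639 CPM. These 4 did not overlap between the groups and were not called (edgeR adjusted p = 0.317, 0.5, 0.555 and 0.309). Nfasc, the neurofascin gene, stood at 152, 2.71 and 285 CPM against 196, 227 and 217 CPM with overlap, and its log2 fold of -0.54 turned to 0.043 without Nkx2.1 replicate 2. Of 28 tested members 0 were called (2 higher and 1 lower by DESeq2), and the median log2 fold was -0.01. Without overlap 4 lay higher and 3 lower, beside 5.9% and 14% of all genes tested.

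Of the olfactomedin domain genes, the family of gliomedin, 3 lay lower. Olfm3 stood at 10.9, 19.1 and 85.1 CPM in Nkx2.1 and 599, 835 and 932 CPM in SOM libraries, Olfm1 at 52.2, 9.39 and 63.9 and 151, 165 and 90.1 CPM, and Olfm2 at 91.1, 6.18 and 62.4 and 226, 276 and 96.2 CPM, all without overlap and not called (edgeR adjusted p = 0.282, 0.406 and 0.461). The latrophilin ligand Tenm2, a teneurin, lay higher at 2492, 1495 and 939 CPM against 450.2, 490.2 and 725 CPM (edgeR adjusted p = 0.309). Over 13 tested olfactomedins, latrophilins and partners, 0 were called (0 higher and 1 lower by DESeq2) and the median log2 fold was -0.08. Without overlap 1 lay higher and 3 lower, beside 5.9% and 14% of all genes tested.

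Synaptic organizers lay in both directions. Of the receptor phosphatases, which sit on axon terminals and bind postsynaptic partners, Ptprd stood at 1838, 2060.1 and 2931 CPM in Nkx2.1 and 1022, 355 and 648 CPM in SOM libraries and Ptprs at 606, 554 and 866 and 427, 342 and 454 CPM, both without overlap. Neurexophilins Nxph1 and Nxph2, secreted ligands of neurexins, lay higher at 945, 1066 and 1585 against 890.2, 620.3 and 745 CPM and at 202, 184 and 338 against 45.6, 68.5 and 142 CPM. The neurexin gene Nrxn3 overlapped, at 2000.3, 1828 and 1353 CPM against 1556, 1378 and 2071 CPM. Lrfn5 and Lrrtm3, leucine-rich postsynaptic proteins, lay lower at 7.83, 0.931 and 0.663 against 236, 132 and 95.01 CPM and at 0.681, 0 and 0.0828 against 29.8, 15.1 and 48.4 CPM. The cerebellin gene Cbln4, a secreted organizer of somatostatin cells, had 0 reads in the Nkx2.1 libraries and 44.7, 13.9 and 13.6 CPM in SOM libraries, at least 277-fold lower by 3 reads over the group. Of 33 tested members 0 were called (1 higher and 6 lower by DESeq2), and the median log2 fold was 0.05. Without overlap 5 lay higher and 7 lower, beside 5.9% and 14% of all genes tested.

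In the adhesion and guidance families edgeR called no member. The counts without overlap given here stand beside 5.9% higher and 14% lower over all genes tested. DESeq2 called 1 higher and 2 lower among immunoglobulin superfamily genes, 2 and 1 among cadherins, 1 and 2 among ephrin, Slit-Robo and netrin genes, and 0 and 3 among semaphorins, plexins and neuropilins. Alcam and the IgLON gene Negr1 lay higher without overlap, at 786, 1032 and 802 against 299.7, 219 and 327 CPM and at 617, 1300.4 and 1048 against 293, 506 and 578 CPM, and Dscam, which acts in self-avoidance of neurites, lay lower at 2.38, 34.4 and 0 against 262, 123 and 182 CPM. Of 32 tested immunoglobulin superfamily genes 6 lay higher and 7 lower. Among cadherins Cdh6 stood at 229, 107 and 148 CPM in Nkx2.1 and 0, 1.78 and 0 CPM in SOM libraries and Pcdh18 at 8.17, 306 and 0 and 404, 430.4 and 552 CPM, and of 24 tested 3 lay higher and 5 lower. The netrin receptor genes Unc5c and Unc5d lay higher, at 193, 126 and 549.8 against 0.955, 0.592 and 17.5 CPM and at 1019, 230.0 and 552 against 98.1, 216 and 214 CPM, while of 25 tested ephrin, Slit-Robo and netrin genes 3 lay higher and 5 lower. For semaphorins, plexins and neuropilins the counts were 3 and 4 of 24, with Plxna4 at 308, 463 and 129.5 against 113, 46.5 and 80.9 CPM.

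In the migration and reelin list, Dab1, the intracellular adaptor of the reelin signal, stood at 869, 104 and 183 CPM across Nkx2.1 libraries and at 5.20, 8.44 and 19.2 CPM in SOM libraries. It was 35.2-fold higher by the means with no overlap, though Nkx2.1 replicate 1 was far above the other Nkx2.1 libraries, and it was not called (log2 5.14 ± 0.93 SE, edgeR adjusted p = 0.111). Its ligand gene Reln lay the other way, as given above. Dcx, the doublecortin of migrating neurons, stood at 3441, 3718 and 2969 CPM against 1968, 1412 and 2184 CPM and Apc, a scaffold of the Wnt pathway that binds microtubules, at 1406, 2239.7 and 2028 against 563, 593 and 670.2 CPM (edgeR adjusted p = 0.309 and 0.22). Of 17 tested members 0 were called (2 higher and 0 lower by DESeq2), and the median log2 fold was 0.04. Without overlap 3 lay higher and 1 lower, beside 5.9% and 14% of all genes tested.

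Among ionotropic receptor genes edgeR called none, and DESeq2 called 0 higher and 3 lower among glutamate receptors and 1 higher, Gabrg3, and 0 lower among GABA-A receptors. Among AMPA receptor subunits, Gria4 stood at 2173, 1475 and 818 CPM in Nkx2.1 and 424, 566 and 629 CPM in SOM libraries without overlap, and Gria1 at 2697, 1648 and 2890.3 and 1659.8, 1278 and 2012 CPM with overlap. Kainate receptor subunits lay lower without overlap in 4 of 6 tested genes, with a median log2 fold of -2.23. In all, 0 of 23 tested glutamate receptor genes were called, and the median log2 fold was -1.59. Without overlap 1 lay higher and 8 lower, beside 5.9% and 14% of all genes tested. The GABA-A receptor subunit gene Gabrg3 stood at 1066, 693 and 479.9 CPM against 55.8, 1.92 and 19.8 CPM (log2 4.85 ± 1.01 SE, edgeR adjusted p = 0.194), and the subunit genes Gabra3 and Gabrb1 lay the other way at 5.22, 72.5 and 125 against 168, 235 and 322 CPM and at 2.498, 0 and 104 against 151, 110.4 and 145 CPM. Of 13 tested genes of that class 0 were called.

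Among channels and modulatory receptors edgeR made 0 calls. Of all genes tested, 5.9% lay higher and 14% lower without overlap, and the lower counts of both channel lists were near that share. DESeq2 called 0 higher and 2 lower among potassium and HCN channels, 1 and 1 among calcium channels and 1 and 5 among metabotropic and neuromodulator receptors. Of 35 potassium and HCN channel genes 0 lay higher and 4 lower without overlap, among them Kcna6 at 57.4, 0 and 60.5 against 152, 193 and 183 CPM and Kcnk1, a leak channel, at 0.568, 0 and 0 against 28.3, 34.8 and 29.7 CPM. The calcium channel list had 0 higher and 4 lower of 23, with the T-type channel Cacna1h at 0.454, 0 and 0 against 144, 29.2 and 13.3 CPM. Metabotropic and neuromodulator receptors had 3 higher and 8 lower of 24: Grm5, a glutamate receptor coupled to calcium release, stood at 997, 656 and 649 against 567, 225 and 348 CPM, and the serotonin receptor Htr1a at 0.568, 0 and 0 against 73.9, 41.7 and 19.8 CPM. Cnr1, the cannabinoid receptor, overlapped at 473, 365 and 63.5 against 190.2, 531 and 451 CPM.

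Vesicle release and calcium-binding genes were compared next. Syngr3, a synaptic vesicle membrane protein, stood at 184, 116 and 115 CPM in Nkx2.1 and 626, 662 and 731 CPM in SOM libraries and was 4.87-fold lower, not called (log2 -2.28 ± 0.37 SE, edgeR adjusted p = 0.0758). Vsnl1, the neuronal calcium sensor visinin-like protein, stood at 38.0, 19.97 and 16.5 CPM against 272, 542 and 313 CPM (log2 -3.92 ± 0.65 SE, edgeR adjusted p = 0.0758). The calmodulin gene Calm3 stood at 113, 199.9 and 276 CPM against 678, 722 and 544 CPM, without overlap. In contrast Snap25, a SNARE protein of release, lay higher at 1673, 1995 and 1624 against 823, 958 and 1108 CPM (edgeR adjusted p = 0.317), while the calcium sensor of release Syt1 overlapped. The counts without overlap were 2 higher and 6 lower of 30 vesicle genes and 1 higher and 5 lower of 16 calcium-binding genes, where all genes tested had 5.9% higher and 14% lower. Of both lists 0 were called by edgeR, and DESeq2 called 1 vesicle gene and 4 calcium-binding genes lower. Ndrg4, a gene of neurite growth outside these lists, stood at 171, 302 and 512 CPM against 1743, 1654 and 1433 CPM and was 4.90-fold lower (edgeR adjusted p = 0.0758). Syngr3 and Ndrg4 were called without Nkx2.1 replicate 1 (edgeR adjusted p = 0.0326 and 0.0436), and Ndrg4 also without Nkx2.1 replicate 3 (0.034).

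Among neuropeptide genes only Pnoc, the precursor of nociceptin, lay higher without overlap in the Nkx2.1 libraries of 18 tested, at 127, 141 and 117 CPM against 4.14, 0 and 0 CPM (log2 6.51 ± 1.96 SE, edgeR adjusted p = 0.317). Its 3 Nkx2.1 libraries were close together and 2 of the SOM libraries had 0 reads. Sst, Npy, Penk, Chga and Pcsk2 were the 5 that lay lower, and Cort, the cortistatin gene, overlapped at 66.8, 87.5 and 9.11 against 9.02, 9.77 and 5.14 CPM. Over all genes tested, 5.9% lay higher and 14% lower without overlap, and the higher count here was near that share. Of these 18 genes edgeR called 0. DESeq2 called 2 higher and 5 lower of the 19 list members it tested, beside 1.88% and 7.01% of all genes it tested.

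Secreted growth factors lay apart in some libraries. Tgfb2, a transforming growth factor, stood at 88.0, 168 and 27.6 CPM across Nkx2.1 libraries and at 0, 0.148 and 0 CPM in SOM libraries (log2 10.68 ± 2.497 SE, edgeR adjusted p = 0.279), and Tgfb3 at 299.6, 0.0846 and 296 and 0, 4.14 and 0.229 CPM with overlap through Nkx2.1 replicate 2. The receptor gene Tgfbr1 lay the other way, at 1.02, 0 and 45.7 against 108, 77.6 and 185 CPM. Of 14 tested genes of this pathway 0 were called (1 higher and 1 lower by DESeq2). Without overlap 3 lay higher and 2 lower, beside 5.9% and 14% of all genes tested. Igf1, insulin-like growth factor 1, stood at 2.95, 0 and 0 CPM against 129, 130.1 and 308 CPM (log2 -7.61 ± 1.72 SE, edgeR adjusted p = 0.246, and 0.0182 without Nkx2.1 replicate 1), while Ntrk2, the receptor of brain-derived neurotrophic factor, overlapped at 718, 617 and 467 against 535, 391 and 617 CPM. Sdc3, a heparan sulfate proteoglycan, lay lower at 7.95, 181 and 62.8 against 1068, 498 and 466 CPM. The trophic, Wnt, Notch and extracellular matrix lists also had 0 members called by edgeR, and so did 19 tested genes of intrinsic apoptosis, where Diablo alone lay higher (349, 270.3 and 92.8 against 62.5, 40.7 and 80.03 CPM) and Cycs alone lower (0.454, 0.508 and 0.414 against 3.29, 15.8 and 11.1 CPM).

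Genes of general cell function lay on both sides. Cytosolic ribosomal proteins had a median log2 fold of 0.31 over 55 tested genes, with 2 higher and 6 lower without overlap. Nuclear-encoded respiratory chain genes had 0.27 over 64, with 5 and 5. These counts were near or below the 5.9% higher and 14% lower of all genes tested. Ribosomal protein genes have many processed copies, so their counts from unique alignments are uncertain. Chromatin regulators had 3 higher and 3 lower of 31, among them Tet2, which oxidizes methylcytosine, at 231, 291 and 375 against 87.0, 108 and 76.7 CPM. H3f3b, a gene of the replacement histone H3.3, stood at 1552, 1452 and 1849 CPM in Nkx2.1 and 564, 504 and 437 CPM in SOM libraries, 3.22-fold higher and not called (log2 1.69 ± 0.26 SE, edgeR adjusted p = 0.0657). It was called without Nkx2.1 replicate 1 (edgeR adjusted p = 0.0478). By edgeR, none of the genes of these 3 lists or of the RNA-binding, cholesterol synthesis and estrogen receptor lists was called. DESeq2 called 0 higher and 3 lower among ribosomal proteins, 1 and 2 among respiratory chain genes and 1 and 0 among chromatin regulators.

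Immediate early and heat shock genes, which respond to dissociation, had 1 member higher and 1 lower without overlap of 19 tested and 0 called. Fos stood at 688, 1215 and 633 CPM across Nkx2.1 libraries and at 328, 356 and 63.3 CPM in SOM libraries (edgeR adjusted p = 0.475), and Hsp90ab1, a chaperone gene, at 635, 985 and 838 and 1575, 1370.1 and 1331 CPM. The other abundant chaperone gene of the list, Hspa5, overlapped at 380.3, 819 and 924 against 960.5, 902 and 957 CPM.

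Genes outside any list that came nearest to a call in the direction of Nkx2.1 were Zfp266, Thsd7a and Sh3bgrl. The zinc-finger gene Zfp266 stood at 1322, 1960.3 and 471 CPM against 75.2, 166 and 81.6 CPM, Thsd7a, which encodes a thrombospondin-domain membrane protein, at 938, 1505 and 584 against 94.1, 91.3 and 171 CPM, and Sh3bgrl at 1028, 856 and 568 against 139, 221 and 200.1 CPM. They were 11.6-fold, 8.49-fold and 4.38-fold higher without overlap (edgeR adjusted p = 0.0828, 0.0828 and 0.0931). Without Nkx2.1 replicate 3, Zfp266 was called (edgeR adjusted p = 0.0357).

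Of all-or-none differences edgeR called none. Mob3b was the only gene with at least 10 CPM in all 3 Nkx2.1 libraries and 0 reads in all SOM libraries, at 154, 20.9 and 49.4 CPM and at least 559-fold higher against 3 reads over the SOM group. In the other direction there were 13 genes, among them Cbln4, the pleckstrin homology domain gene Plekha6 (81.9, 10.4 and 53.7 CPM, at least 574-fold lower) and the transcriptional coactivator gene Eya3 (30.5, 17.02 and 47.4 CPM, at least 357-fold lower). Of these 14 genes edgeR called 0 and DESeq2 called 13, all but Cbln4, and Plekha6 and Eya3 were chosen after their values were seen. These bounds take in counting error alone, because the reads carry no molecular identifiers and can be copies of 1 molecule.

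**Figure D5:**
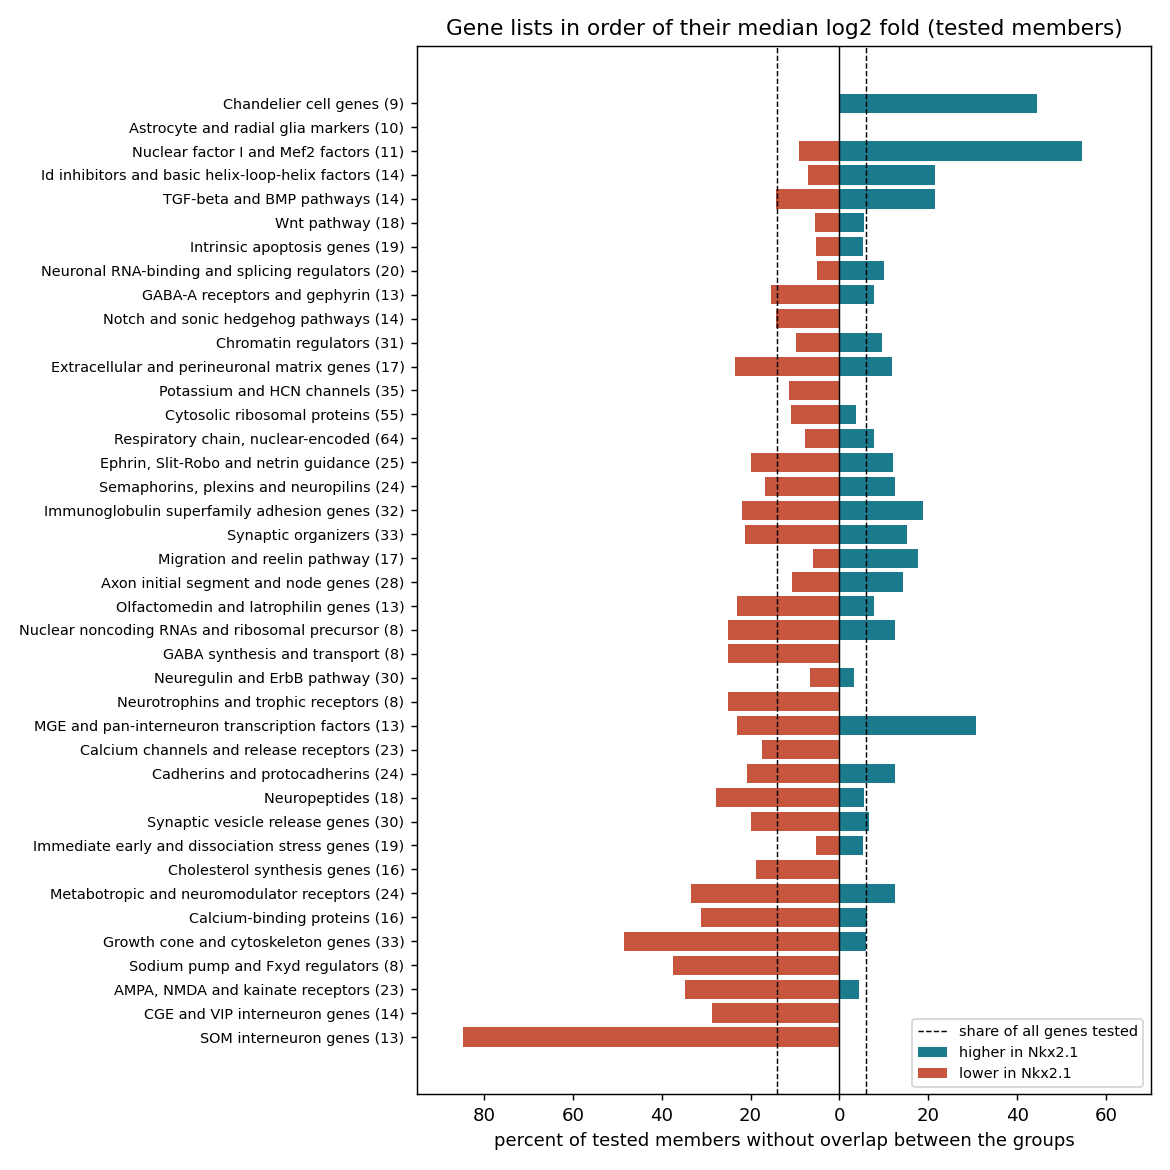
Share of tested members of the larger gene lists (number tested in brackets) that lie higher (right) or lower (left) in Nkx2.1 than in SOM libraries without overlap. Lists are in order of the median log2 fold. Those with few tested members, such as fast-spiking genes and excitatory, oligodendrocyte and dividing cell markers, are not shown. Dashed lines mark the shares over all genes tested, 5.9% higher and 14% lower, and many lists pass a line. The highest shares are those of nuclear factor I and Mef2 factors on the right (6 of 11) and of SOM genes on the left (11 of 13). The SOM list includes Sst, the gene of the SOM-Cre driver.

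Markers of other cell types were read in both groups, and the sum of astrocyte markers in Nkx2.1 replicate 1, given above, exceeded the level of Gad1 in that library. Oligodendrocyte lineage markers summed to 620, 259 and 340 CPM in Nkx2.1 and 141, 339 and 290 CPM in SOM libraries, and excitatory neuron markers to 315, 3.55 and 371 CPM and 195, 134 and 113 CPM. Of 6 tested excitatory markers 0 were called or without overlap and the median log2 fold was 0.54: Slc17a7, a vesicular glutamate transporter gene, had 0 reads in all Nkx2.1 libraries, and Neurod6, a transcription factor gene, stood at 66.2, 0 and 67.9 CPM against 0, 0 and 1.26 CPM. Markers of dividing cells summed to 556, 41.5 and 51.1 CPM against 97.5, 107.5 and 64.1 CPM, with Mki67 at 179.8, 0 and 0 and 0.106, 0 and 0.114 CPM. Microglia and vascular markers summed to at most 18.7 CPM in any library. Nkx2.1 replicate 1 thus held the highest sums of astrocyte, oligodendrocyte and dividing cell markers of the 6 libraries. Their part in the folds above was not tested. Without that library 8 genes were called higher and 29 lower.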

How the data were processed

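The authors deposited 1 table of raw read counts for each library, by gene symbol, from a counting program and strand setting not given in the sources used here. The submitters' processing notes name TopHat2 2.0.9, DESeq2 and the build mm10 without saying what each did. Of 23319 symbols, 13721 had a read in the 6 libraries compared. The 5 summary entries that name no gene held 83.55% to 85.21% of each table, most of it alignments that were not unique (64.51% to 68.01%), and were left out of library sizes and tests. Genes with near-identical copies, overlapping genes and antisense genes are therefore uncertain. Of chromosomal stretches with no read in any library, the longest held 461 genes on the minus strand of chromosome 9 from 21294275 to 124476898, after Cdkn2d, which itself held 189583 to 390506 reads; another held 121 genes on the minus strand of chromosome 19. Members there, such as Tcf12, Cck and Htr3a, have no readable value and were not tested.

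The counts as deposited were fitted in R 4.3.3 with edgeR 4.0.16 (quasi-likelihood test, TMM, filterByExpr with a minimum count of 10) on all 9 libraries with the group as the only term. Benjamini-Hochberg adjustment was over 10728 genes. It left 6 residual degrees of freedom, and the common biological coefficient of variation was 1.4. Standard errors are the size of the log2 fold over the square root of the F statistic. The fit was also run on simulated counts drawn independently for each gene and library. Such counts do not hold the missing transcripts described above, so that run is no check on the calls. Bounds use a floor of 3 reads over a group. Gene positions are from GENCODE M21 on GRCm38, the same assembly as mm10. Alternatives were DESeq2 1.42.0, RLE size factors, other filters, a robust fit, the 6 libraries alone, a replicate block, and fits without each library.

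Named genes were Nkx2-1, Sst, Vip, Lhx6, Gad1, Gad2, Gldn, Nfasc and Igsf11, up to 10 called genes per direction, and 8 genes per direction with the smallest p among those not called, without overlap and reaching 10 CPM in the higher group. To these came, per list, the 3 tested members highest in CPM and up to 4 without overlap with the smallest p. Some genes that this rule selects are not reported here. Other genes named were chosen after their values were seen. The comparison, lists and members were chosen with earlier results of these data known, so no list was tested, and lists are described by counts and medians.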

Additional observations from a re-analysis of the deposited data

How the results depend on the processing

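The counts of 7 genes higher and 3 lower became 199 and 743 with DESeq2, 4 and 1 with only the 6 Nkx2.1 and SOM libraries, and 3 and 1 with the replicate block. The lower count became 1 without Cdkn2d and Rn45s in library sizes, an alternative chosen after seeing the data. Without 1 library the counts ranged from 0 to 8 higher and from 0 to 29 lower. Deviations of same-numbered Nkx2.1 and SOM libraries correlated at -0.0261, -0.0191 and -0.017. Those of same-numbered VIP and SOM libraries correlated at 0.0643, 0.0418 and 0.0079, and of VIP and Nkx2.1 libraries at -0.0326, -0.00434 and -0.0106. With 3 libraries a group, such weak values cannot show whether replicate numbers pair the samples. RLE size factors, no filter, a minimum count of 50 and the robust fit kept both counts within 1.5 times, and the fewer genes found per Nkx2.1 library kept its sign without thinning and with at least 10 reads. In fits without 1 library the log2 folds of 3 genes turned sign: Vip ranged from -5.13 (Nkx2.1 replicate 1 left out) to 6.52 (SOM replicate 3), Gad1 from -0.32 (Nkx2.1 replicate 2) through -0.016 (SOM replicate 1) to 0.27 (Nkx2.1 replicate 3), and Nfasc from -1.45 (Nkx2.1 replicate 3) to 0.043 (Nkx2.1 replicate 2). For all of these changes the cause was not tested. Over the genes named by symbol, by a call or by the smallest p, 466 refits kept sign and call, 27 gained a call, 60 lost one and 4 turned sign. Of 197 further list genes, the sign turned in at least 1 alternative for 32, edgeR called 7 in at least 1 and DESeq2 called 55. Over genes tested in both fits, the median change of the log2 fold passed 0.1 with the replicate block (-0.2276) and without Nkx2.1 replicate 2 (0.2829). Over each fit's own genes the median fold, -0.00755 as reported, was -0.4968 with the block and -0.3268, -0.1176 and -0.2596 without Nkx2.1 replicates 1 to 3. With 3 libraries a group and a biological coefficient of variation of 1.4, a gene that was not called is not shown to be level between the groups, and a difference under 3 reads is not detectable.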
